A study of Rattus norvegicus with 30 samples.

Results

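The comparison described here set hearts given ischaemic preconditioning (IPC) against hearts exposed to ischaemia without it (ISCH). Its arrays were taken by their labels, IPC replicates 1 to 5 and ISCH replicates 1 to 5, which made 10 of the 30 arrays of the series. Each array measured total RNA from the left ventricle of a rat heart on an Affymetrix expression array, in which a probe set is a group of short probes for 1 transcript. The 20 other arrays were control hearts (CTL), hearts preconditioned with an anaesthetic (APC) and the triggers of both kinds of preconditioning (IPC_TRI and APC_TRI), 5 of each, described by the labels as biological replicates. The labels name reperfusion among the subjects of the series, and give no strain, age, sex, anaesthetic, length of ischaemia or reperfusion, number of preconditioning cycles, or whether the heart was perfused outside the body. They name no genetic change, so the 6 groups differ by protocol alone as far as the labels go. All 8740 probe sets other than the array's own controls were considered. The 5244 with the higher mean signal, 60% of them, entered the tests, and stood for 3155 genes.

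Ischaemic preconditioning is a series of brief, harmless interruptions of coronary flow that makes the heart more resistant to a later long ischaemia. Adenosine, bradykinin and opioid receptors at the cell surface pass the signal through kinases to the mitochondria, whose permeability at reperfusion decides much of the cell death. Heart muscle lives on oxidation of fatty acids and glucose, turns to glycolysis and exports lactate when flow stops, and answers the stress within minutes with immediate early transcription factors and heat shock proteins.

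The tissue named by the labels was borne out by its markers: 9 of the 12 tested genes of the cardiomyocyte list lay among the brightest 10% of probe sets. The 2 groups of arrays differed in technical measures as well as in treatment. The bacterial RNA added to each sample as a spike had a mean log2 signal of 10.9 ± 0.43 (SD, n = 5) in IPC and 12.0 ± 0.61 in ISCH. The median signal was 123 ± 6.97 against 138 ± 10.7, and the brightest 1% of probe sets held 30.3 ± 2.52% against 37.1 ± 4.15% of the signal. Each of these 3 differences had a p of 0.016 in a 2-sided exact permutation test (adjusted over 5 measures, p = 0.026), where 5 arrays against 5 cannot go below 0.0079. The ratio of 3′ to 5′ probe sets, a sign of RNA breakdown, did not pass for beta-actin (p = 0.96, exact permutation test) or Gapdh (p = 0.79). IPC 5 and ISCH 1 correlated least with their own groups, with a mean r of 0.947 and 0.905 across probe sets, and 44.3% of the signal of ISCH 1 lay in the brightest 1% of probe sets, against 33.6 to 36.1% on the other ISCH arrays.

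At an adjusted p under 0.05 in limma, 9 probe sets differed between IPC and ISCH, 0.172% of the 5244 tested. Of these 4 were higher with preconditioning (0.0763%) and 5 lower (0.0953%). The higher ones were Anxa1, Gch1, Slc16a1 and the unnamed rc_AA799679_at, and the lower ones Pnmt, Gpx3, Notch1, Col5a1 and the unnamed M13100cds#2_s_at. The median log2 change over all probe sets was 0.02, and 322 probe sets (6.14%) lay higher and 246 (4.69%) lower at an unadjusted p under 0.05. For 76 probe sets (1.45%) all 5 IPC arrays lay above all 5 ISCH arrays, and for 48 (0.915%) all 5 lay below, after normalisation. Of the 9 that passed, 6 had groups that did not overlap. Signals below are as deposited, in the order of replicates 1 to 5, and changes are log2 fold changes ± SE on quantile-normalised log2(signal + 16), with n = 5 arrays per group. The added 16 makes folds of dim probe sets smaller than those of their signals.

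**Figure D1:**
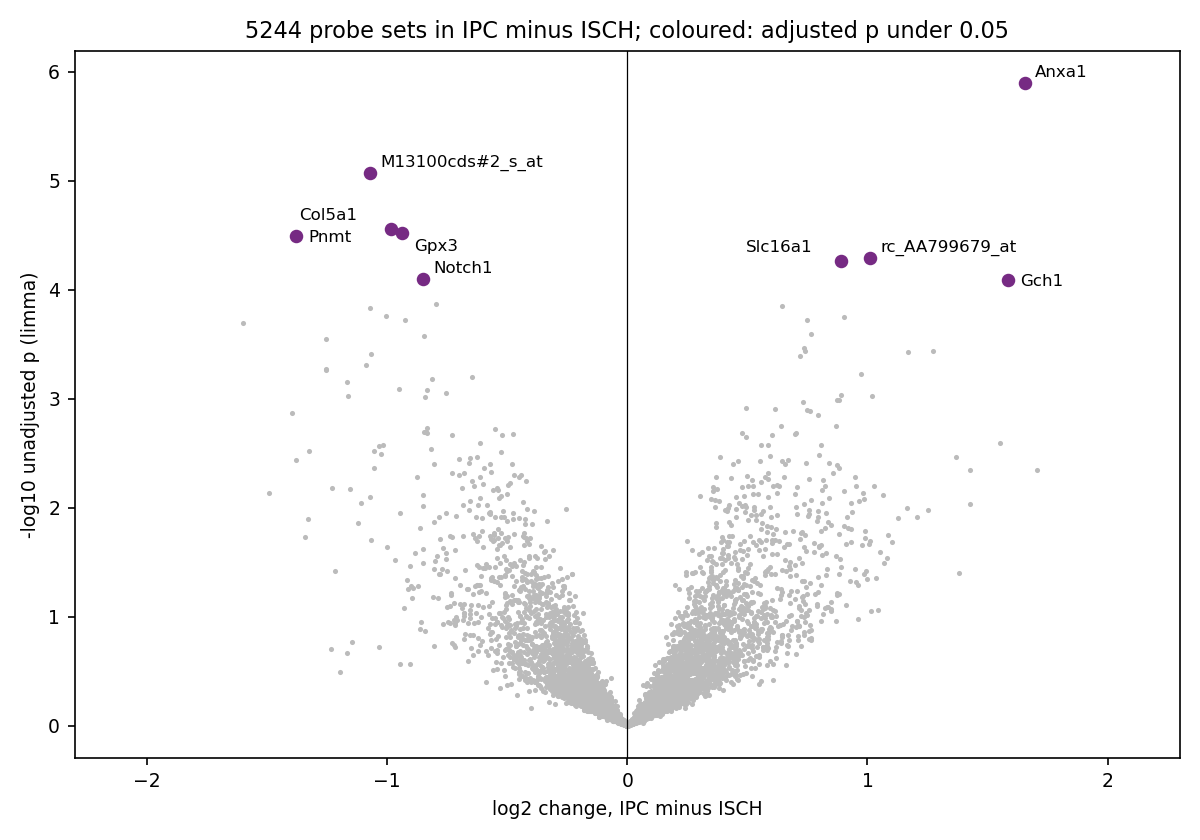
Log2 change of 5244 probe sets between IPC and ISCH (x axis) against -log10 of the unadjusted limma p (y axis), with 1 point per probe set and the 9 with an adjusted p under 0.05 coloured and named. Anxa1 stands alone at the upper right, with a change of 1.65, and most points lie close to 0 on both sides.

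Anxa1 encodes annexin A1, a phospholipid-binding protein induced by glucocorticoids that holds back neutrophils. Its signal was 485, 798, 545, 899.7 and 415 on the IPC arrays. On the ISCH arrays it was 189, 102, 170.1, 235 and 285, and on the CTL arrays 114 to 199.8. Every IPC array was therefore brighter than every ISCH and every CTL array. The rise over ISCH was 1.65 ± 0.27 (95% confidence interval 1.09 to 2.22; a fold of 3.15; limma adjusted p = 0.00665). ISCH itself lay close to CTL, at 0.24 ± 0.27 (adjusted p = 0.699), whereas IPC lay 1.89 above CTL (adjusted p = 1.54e-05). The mean signal of the other groups was 311 in APC and 199.5 in IPC_TRI. The brighter probe set of the gene, with means of 866 in IPC and 528 in ISCH, had 0.64 ± 0.19 (adjusted p = 0.181). It changed in the same direction and did not pass, so that Anxa1 passed only on its dimmer probe set.

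Slc16a1 encodes the monocarboxylate transporter MCT1, which carries lactate and pyruvate across the cell membrane. The probe set that passed had signals of 1605, 1459, 1414, 1065 and 977 in IPC. In ISCH they were 664, 792, 561, 676 and 647, again without overlap. The rise was 0.89 ± 0.19 (interval 0.50 to 1.28; adjusted p = 0.0405), with a CTL mean of 892. The brighter probe set of the gene had a like change of 0.89 ± 0.24 that did not pass (adjusted p = 0.126). On it IPC 1 to 4 read 4846, 4421, 3344 and 4628 and IPC 5, at 2251, lay among the ISCH arrays, which reached 2363.

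Gch1 encodes GTP cyclohydrolase, the first and limiting enzyme in the synthesis of tetrahydrobiopterin, the cofactor of nitric oxide synthases and of tyrosine hydroxylase. Signals were 93.9, 138, 118, 103 and 52.8 in IPC and 32.3, 16, 26.4, 36.7 and 17.6 in ISCH. The groups did not overlap, and both lay below CTL, at 286, 423, 301, 319 and 148. Gch1 was lower in ISCH than in CTL, at -2.87 ± 0.35 (adjusted p = 5.87e-07), and IPC stood 1.59 ± 0.35 above ISCH (adjusted p = 0.0472). IPC still lay below CTL, at -1.29 (adjusted p = 0.0274). The second probe set, several times brighter, gave 1.02 ± 0.28 (adjusted p = 0.126), with 359 in IPC, 177 in ISCH and 1063 in CTL. With a pseudocount of 64 in place of 16 the change of the dim probe set was 0.94 and did not pass (adjusted p = 0.100).

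The unnamed probe set rc_AA799679_at rose by 1.01 ± 0.21 (adjusted p = 0.0405). Its 5 IPC signals of 536, 506, 429.9, 467 and 546 were like those of CTL (478 to 617) and above the ISCH signals of 342, 378, 307, 191 and 114.

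Pnmt, phenylethanolamine N-methyltransferase, turns noradrenaline into adrenaline. It is known from the adrenal medulla and is also made by some cells of the heart. Its signal was 197, 213, 209, 121 and 247 in IPC. The ISCH arrays read 575, 1117, 822, 284 and 339.8, all above the IPC arrays and spread over a wide range. Pnmt was lower with preconditioning, at -1.38 ± 0.28 (interval -1.96 to -0.80; ISCH over IPC 2.60-fold; adjusted p = 0.0337).

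Across the 6 protocols Pnmt was lowest in the 2 groups of ischaemic preconditioning. The mean was 153 ± 41.7 (SD, n = 5) in IPC_TRI and 197 ± 46.5 in IPC, then 356 ± 43.1 in APC_TRI, 587 ± 144 in CTL, 613 ± 196 in APC and 628 ± 347 in ISCH. IPC and IPC_TRI, next to each other in this order, overlapped in their ranges (121 to 247 and 85.4 to 184). CTL, APC and ISCH overlapped as well (371 to 738, 372 to 892 and 284 to 1117). ISCH differed from CTL by only -0.02 ± 0.28 (adjusted p = 0.981), and IPC lay -1.40 from CTL (adjusted p = 0.00149). These comparisons share the IPC, ISCH and CTL arrays.

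Of the 10 tested genes of catecholamine handling, Pnmt alone passed in either direction on the brightest probe set of each gene, and the median change of the list was -0.01 beside 0.02 for all genes. Monoamine oxidase A (Maoa), which breaks catecholamines down, had 4837, 5405, 3677, 7319 and 2219.6 in IPC and 1356, 3559.8, 2056, 2829.6 and 2356 in ISCH, a change of 0.87 ± 0.25 that did not pass (adjusted p = 0.181). Tyrosine hydroxylase (Th), the first step of catecholamine synthesis, had -0.41 ± 0.42, and the decarboxylase Ddc 0.73 ± 0.49, with groups that overlapped. Dopamine beta-hydroxylase (Dbh) was too dim to be tested. For chromaffin cells, the adrenaline-making cells, the 9 markers on the array, Pnmt included, had a summed signal of 1029 to 1474 in IPC and of 1008 to 2208 in ISCH. The 8 markers other than Pnmt summed to 908 to 1265 in IPC and to 725 to 1325 in ISCH. The median change of the 4 tested markers, again with Pnmt, was -0.14. Chgb, a granule protein that defines these cells, was near 0, with means of 3.16 in IPC and 2.68 in ISCH. Penk was the brightest of the 8, with means of 705 in IPC and 631 in ISCH. The markers therefore differ widely in level, and much of the summed signal is that of Penk. In whole tissue, fewer cells of a type and less RNA per cell cannot be told apart.

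Gpx3 encodes the secreted glutathione peroxidase of plasma, a selenium enzyme that removes peroxides. The first of its probe sets read 1095, 1056, 1384, 929 and 1169 in IPC and 2513, 2077, 2025, 2092 and 1969.7 in ISCH. Every ISCH array was above every IPC array, and the IPC arrays lay within or just below the CTL range of 1005 to 1483. The change was -0.94 ± 0.19 (interval -1.33 to -0.55; ISCH over IPC 1.92-fold; adjusted p = 0.0337). The brighter probe set had -0.76 ± 0.21 (adjusted p = 0.126) and overlapped, because IPC 5 read 5676 there.

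Notch1, a receptor through which neighbouring cells signal, had 673, 381, 664, 578 and 1172 in IPC and 1113, 1106, 1347, 1133 and 1136 in ISCH. The ISCH arrays were tightly grouped and 4 of the 5 IPC arrays lay below them, while IPC 5 fell inside their range. The change was -0.85 ± 0.19 (adjusted p = 0.0472), and the other Notch1 probe set had -0.52 ± 0.21 (adjusted p = 0.331). Of 25 tested genes of Notch and TGF-beta signalling Notch1 alone passed, and the median of the list was 0.03. The Notch ligand gene Jag2 had -0.49 ± 0.20, the TGF-beta signal transducer Smad1 0.83 ± 0.35 and the inhibitor Smad7 0.99 ± 0.46, none past the threshold.

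Col5a1, a chain of the collagen that starts fibrils, read 657, 847, 813, 778 and 1482 in IPC and 1562, 1378, 1698, 2251 and 1839 in ISCH. IPC 1 to 4 lay within the CTL range (647 to 1033) and IPC 5 inside the ISCH range. The change was -0.98 ± 0.20 (interval -1.39 to -0.58; adjusted p = 0.0337). For the unnamed M13100cds#2_s_at, IPC 5 again lay inside the ISCH range, with 1376, 1718, 1537, 1874 and 3305 in IPC and 3344, 2834, 5723, 3376 and 4386 in ISCH, and fell by 1.07 ± 0.20 (adjusted p = 0.0225). All 7 tested probe sets that share the M13100 stem had changes below 0, and 7 of 7 had an unadjusted p under 0.05. By their names they are parts of the same sequence entry, measured on the same arrays, so they do not count as independent results.

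**Figure D2:**
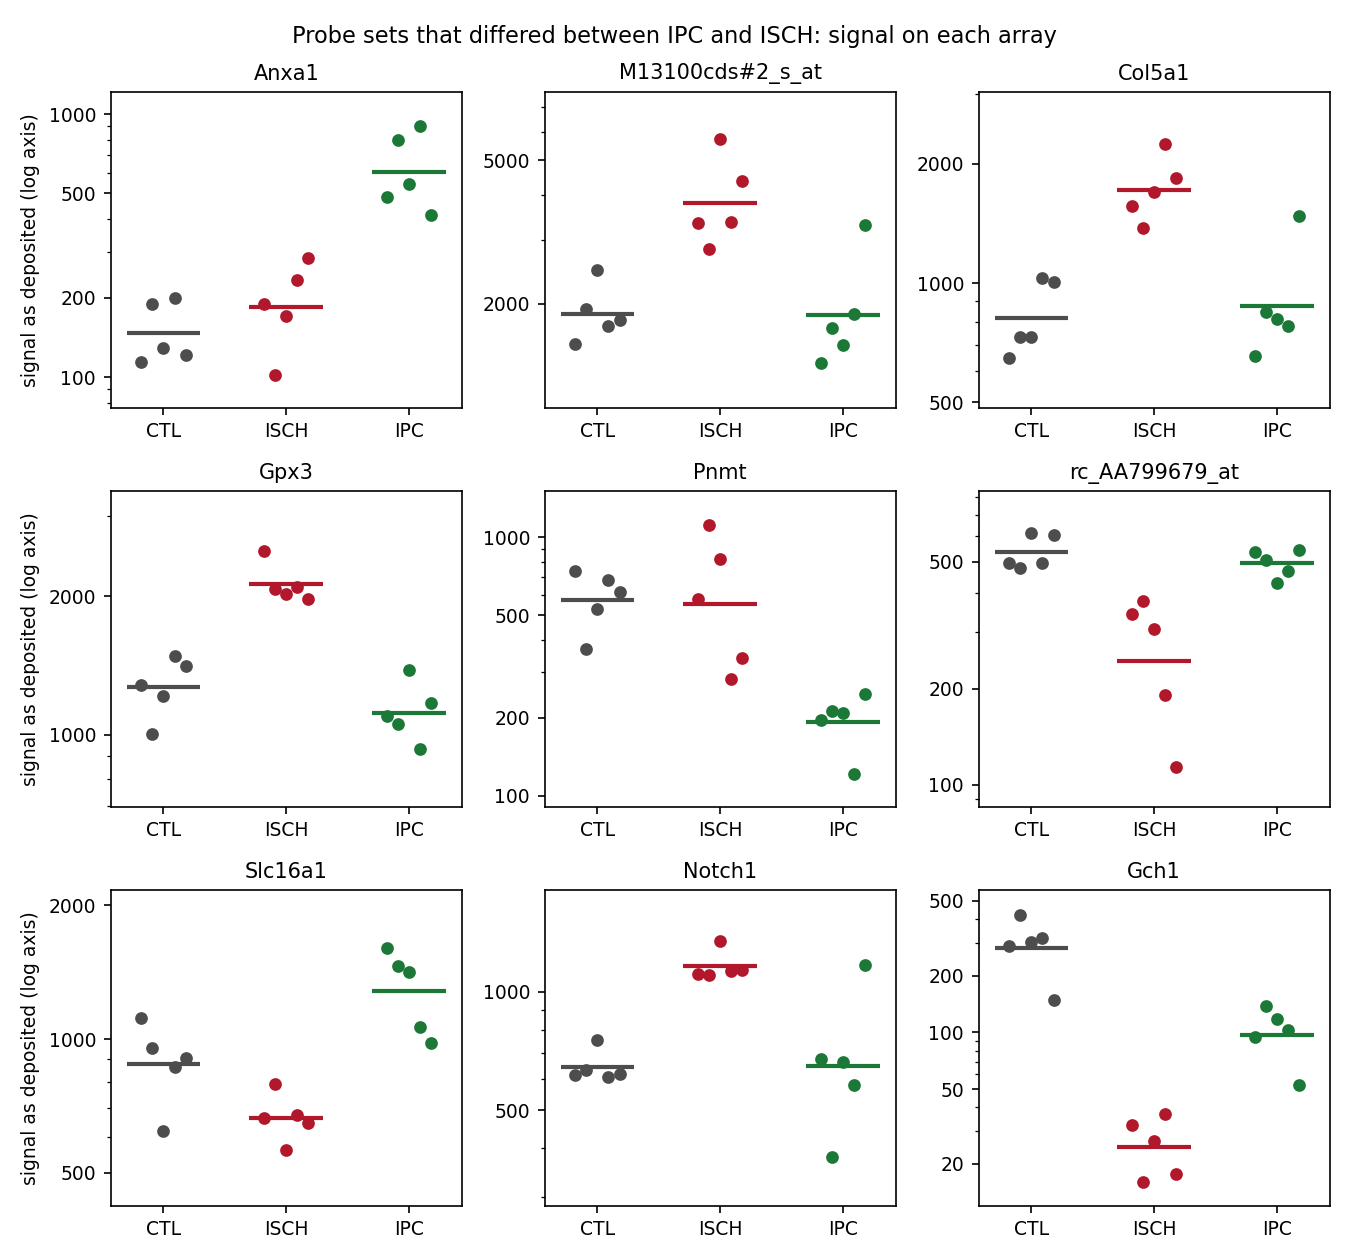
Signal as deposited (log axis) of the 9 probe sets that differed, with 1 point per array for CTL, ISCH and IPC (5 each) and a line at each group's geometric mean. The 5 IPC points stand clear of the 5 ISCH points for Anxa1, Gpx3, Pnmt, rc_AA799679_at, Slc16a1 and Gch1, and 1 IPC point, IPC 5, lies within or next to the ISCH points for the other 3.

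These calls depended on single arrays. Without IPC 5, 89 probe sets passed (1.7%; 37 higher and 52 lower), and with limma's array weights, which count arrays unlike their group for less, 267 passed (5.09%; 137 and 130). The 9 were among them in both. Without IPC 2 or IPC 4, 0 passed in limma (410 at an unadjusted p under 0.05 in both), without IPC 1, IPC 3 or ISCH 3 only 1 passed, without ISCH 1 or ISCH 5 2, without ISCH 4 3, and without ISCH 2 12. Anxa1 was called in all of these except without IPC 2 (1.56; adjusted p = 0.0504) and without IPC 4 (adjusted p = 0.0624). Notch1 (-1.06) and Gch1 (1.78) were called in limma only in the fit without IPC 5 among the 10 that left out 1 array. The direction of all 9 held in the 10 fits, from -1.61 to -1.12 for Pnmt, -1.01 to -0.87 for Gpx3, 0.81 to 0.98 for Slc16a1 and 0.75 to 1.18 for rc_AA799679_at. It ran from -1.17 to -0.89 for Col5a1 and from -1.29 to -0.93 for M13100cds#2_s_at, and that for Notch1 ended at -0.66 without IPC 2. Once the fit held the spike signal as a further term, limma called 0 probe sets (275 at an unadjusted p under 0.05), and Anxa1 then had 1.37 (adjusted p = 0.392) and Pnmt -1.54 (adjusted p = 0.285). Over all 22 alternatives Anxa1 lay between 1.37 and 1.80 and Pnmt between -1.61 and -1.12. The split into higher and lower depended on the scaling, with 8 higher and 14 lower when deposited values were used without normalisation, and 6 higher and 1 lower when arrays were centred on their medians.

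**Figure D3:**
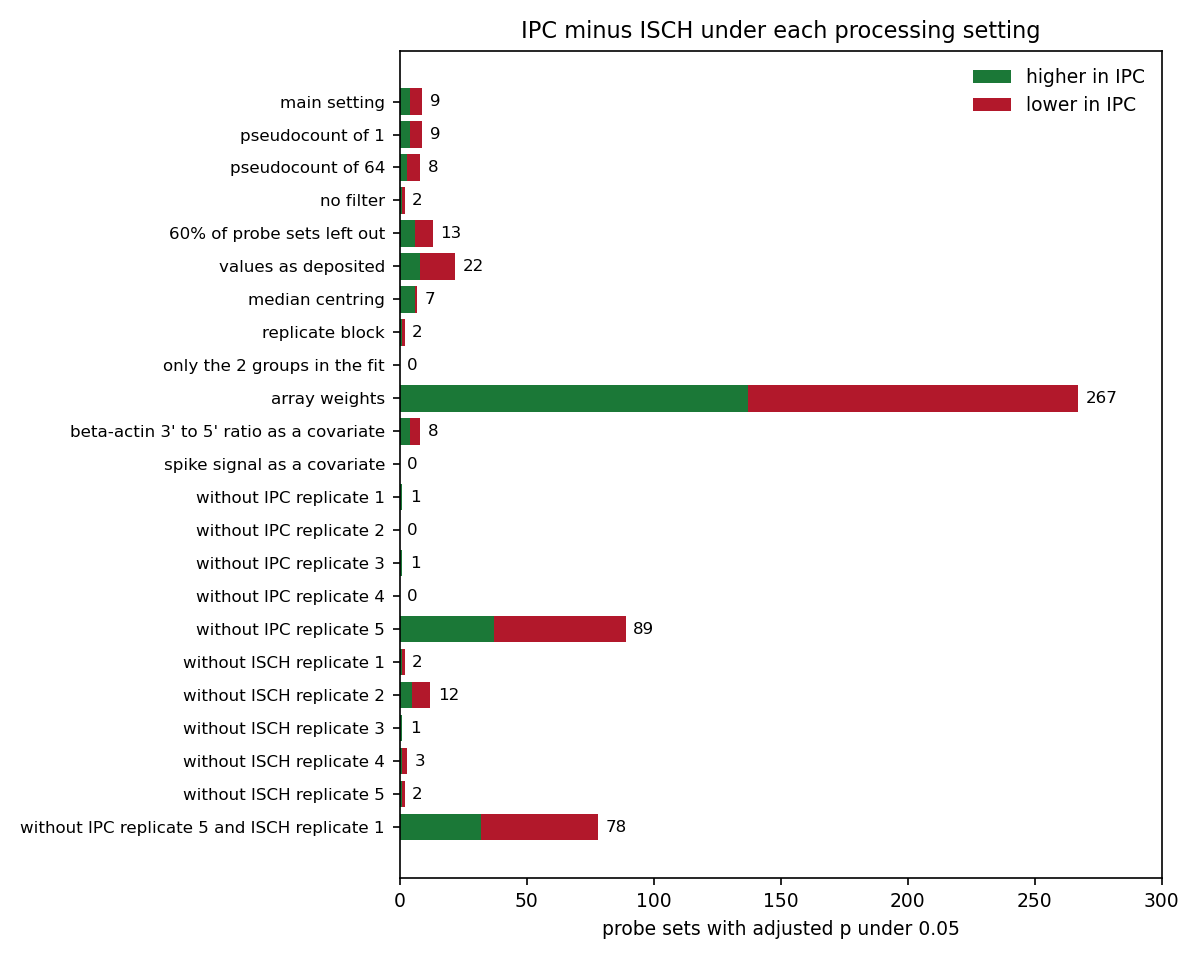
Number of probe sets with an adjusted p under 0.05 (limma) in IPC minus ISCH under each processing setting, split into higher (green) and lower (red) in IPC, with the total beside each bar. The bars for array weights (267) and for the fits without IPC 5 (89, and 78 without ISCH 1 too) stand far above the rest, which reach at most 22.

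Both without IPC 5 and with array weights, 87 of the 5244 probe sets were called, 37 higher and 50 lower. Those with a gene symbol stood for 32 genes higher and 24 lower. These genes were selected by fits that left out IPC 5 or could count it for less. This choice favours genes in which IPC 5 lay nearer to ISCH, so its place in them is partly set by the choice. It does not require such a place. Anxa1, Pnmt, Plat, Ccdc117, Hnrnpa2b1 and Cdc42ep3 were also in the set, and their groups did not overlap with IPC 5 included. The transcription factor gene Junb read 2202, 4402, 3762, 3796 and 1711 in IPC and 1699, 1419, 2042, 1395 and 1278 in ISCH, with a change of 0.88 ± 0.24 over all arrays (adjusted p = 0.129) and of 1.07 without IPC 5 (adjusted p = 0.0134). Zfp36, whose protein degrades cytokine messages, had 0.76 ± 0.21 over all arrays and 0.96 without IPC 5. For the cytokine gene Il6 the signals were 1012, 1237, 2652, 2446 and 517 in IPC and 297, 322, 1494, 528 and 402 in ISCH, and the values 1.37 ± 0.43 and 1.70. The endothelial adhesion molecule Sele had 1.13 ± 0.42 and 1.59.

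Fdft1, squalene synthase, which commits its substrate to cholesterol, read 833, 333, 590.3, 536 and 134 in IPC and 124, 292, 109, 144 and 136 in ISCH, beside 727 in CTL. Its change was 1.43 ± 0.47 over all arrays (adjusted p = 0.233) and 1.81 without IPC 5 (adjusted p = 0.0320). The 3 other tested probe sets of Fdft1 had 0.57, 0.16 and -0.25, so the probe sets of this gene disagree. Maoa had 1.10 without IPC 5 (adjusted p = 0.0134). Cish, an inhibitor of cytokine receptor signalling, had 0.93 ± 0.33 and 1.26, and the scaffold gene Cnksr3 0.90 ± 0.21 and 1.01.

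Among the lower genes of the same set, Lif, a cytokine of the interleukin 6 family, read 119.8, 40.1, 42.7, 44.2 and 242 in IPC and 219, 244, 256, 254 and 319 in ISCH. Its change was -1.39 ± 0.39 over all arrays (adjusted p = 0.147) and -1.73 without IPC 5 (adjusted p = 0.0134). The homeobox gene Shox2 had -1.16 ± 0.31 and -1.40, the secreted follistatin-like Fstl1 -0.95 ± 0.26 and -1.20, the growth factor Igf1 -0.82 ± 0.25 and -1.08, and the natriuretic peptide receptor Npr1 -0.65 ± 0.17 and -0.78. None of these passed with all 5 IPC arrays.

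Close to the threshold with all arrays were some genes that did not depend on IPC 5 for their separation. Plat, tissue plasminogen activator, read 952, 1700, 1153, 1422 and 939.8 in IPC and 554, 679.6, 898, 568 and 832 in ISCH, without overlap, at 0.74 ± 0.18 (adjusted p = 0.0816). Ccdc117 had 0.64 ± 0.15 (adjusted p = 0.0625), Hnrnpa2b1, an RNA-binding protein, 0.77 ± 0.19 (adjusted p = 0.0734) and Cdc42ep3 0.72 ± 0.18 (adjusted p = 0.0828), all 3 without overlap. On the lower side the sulfotransferase Sult2a2 had -1.07 ± 0.27 (adjusted p = 0.0822), with 189.7, 182, 224, 105 and 45.1 in IPC and 422, 245, 274, 348 and 321 in ISCH.

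The beta-1 adrenergic receptor gene Adrb1, the main target of adrenaline and noradrenaline in heart muscle, read 231, 265, 198, 253 and 232 in IPC and 66.6, 91.3, 211, 99.7 and 154 in ISCH. The groups crossed in these signals, where ISCH 3 exceeded IPC 3, and did not overlap after normalisation. The change was 1.03 ± 0.35 (adjusted p = 0.241). Taking the brightest probe set of each gene, the other genes with the largest changes among groups without overlap after normalisation were Dnajb9 (0.90 ± 0.35), Lrp3 (0.92 ± 0.36), Ros1 (0.91 ± 0.38) and Emc8 (0.95 ± 0.46) on the higher side. On the lower side beside Pnmt they were Hlf (-1.23 ± 0.42), Sult2a2, Smo (-0.72 ± 0.34) and Glp1r (-0.65 ± 0.21). Their adjusted p-values in limma ran from 0.0822 for Sult2a2 to 0.453 for Emc8, so that none passed.

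Gene lists are described by the brightest probe set of each gene. On this basis 189 of 3155 genes (5.99%) lay higher and 128 (4.06%) lower at an unadjusted p under 0.05, 48.2% of genes had a change below 0, and the median was 0.02. That median of all genes moved with the scaling, to 0.10 with median centring and -0.05 on deposited values. Of 64 named genes with several tested probe sets, 14 had changes on both sides of 0. In these lists 3 genes passed at an adjusted p under 0.05 on that probe set, Pnmt, Notch1 and Col5a1, all of them lower. The list genes Gch1 and Slc16a1, both higher, and Gpx3, lower, passed only on a dimmer probe set and are not counted here.

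The fibroblast and extracellular matrix list had 21 of 27 tested genes below 0 and a median of -0.38. Of these 10 lay lower and 0 higher at an unadjusted p under 0.05, and Col5a1 alone passed after adjustment. The fibrillar collagen gene Col3a1 read 3436, 2335, 3625, 3524 and 8048 in IPC and 6400.3, 5145, 9913, 11259 and 8123 in ISCH, a change of -1.05 ± 0.33 (adjusted p = 0.214). Col1a2 had -1.05 ± 0.34, Col1a1 -0.73 ± 0.38, the gelatinase Mmp2 -0.73 ± 0.22 and the proteoglycan Bgn -0.60 ± 0.19, none past the threshold. A dimmer probe set of Mmp2 had 0.05 ± 0.22. For Col1a1, Col1a2, Col3a1 and Bgn, IPC 1 to 4 lay below every ISCH array and IPC 5 lay within or above the ISCH range. The brightest probe set of Sparc, a collagen-binding protein, had 0.06, and 3 dimmer ones had -0.84, -0.70 and -0.61, so the probe sets of this gene disagree.

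Set against CTL on each array, the list mean was -0.15, -0.15, 0.01 and -0.01 on IPC 1 to 4 and 0.60 on IPC 5. On the ISCH arrays it was 0.49, 0.05, 0.51, 0.52 and 0.51. IPC 1 to 4 therefore lay below every ISCH array, ISCH 2 closest to them, and IPC 5 lay above every ISCH array. The median was -0.50 without IPC 5. The spike signal was higher in ISCH than in IPC and highest within IPC on IPC 5, and with that signal as a covariate the median of the list was -0.38. Of the markers of other cells, the smooth muscle list had a median of -0.14 (1 of 8 genes lower at an unadjusted p under 0.05) and the nerve and Schwann cell list one of -0.28 (2 of 8).

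The list of the citric acid cycle, pyruvate dehydrogenase and the aspartate shuttle had 16 of 17 tested genes above 0 and a median of 0.25. At an unadjusted p under 0.05 5 were higher and 0 lower, and 0 passed after adjustment in limma. Pdhb, a subunit of pyruvate dehydrogenase, which feeds the cycle, read 2349, 2864, 2104, 3078 and 2278 in IPC and 1834, 1508, 1897, 1515 and 2021 in ISCH. Its groups did not overlap, and the change was 0.48 ± 0.14 (adjusted p = 0.181). Got1 and Got2, the aminotransferases of the shuttle that carries reducing equivalents into mitochondria, had 0.37 ± 0.13 and 0.38 ± 0.14. The dehydrogenase kinase Pdk1 had 0.59 ± 0.21 and citrate synthase (Cs) 0.35 ± 0.17. ISCH had lain below CTL in this list, with a median of -0.39, and IPC had a median of -0.17 against CTL. List means against CTL ran from -0.51 to 0.15 in IPC, with IPC 5 the lowest, and from -0.59 to -0.30 in ISCH.

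The glycolysis list had 17 of 21 genes above 0 and a median of 0.20, with 2 higher (Slc16a1 and the muscle phosphofructokinase gene Pfkm, 0.39 ± 0.12) and 0 lower at an unadjusted p under 0.05. A dimmer probe set of Pfkm had -0.05 ± 0.31. The list means against CTL lay between -0.14 and -0.04 on IPC 1 to 4, at -0.35 on IPC 5, and from -0.42 to -0.32 in ISCH. The lists of fatty acid oxidation (31 genes, median 0.06) and of the respiratory chain (32 genes, median 0.03) lay near the median of all genes, with 3 genes each higher and 0 lower at an unadjusted p under 0.05. Acot2, a mitochondrial thioesterase of fatty acid oxidation, had the largest value of these, 1.55 ± 0.47, with 1938, 1706, 1727, 776 and 728 in IPC and 168, 440.5, 455, 744 and 516 in ISCH (adjusted p = 0.200). The lowest of the IPC arrays for Acot2, IPC 5, lay below ISCH 4, the highest of ISCH.

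Cytosolic ribosomal protein genes lay below 0 in 40 of 40 cases, with a median of -0.18. Of these 8 were lower and 0 higher at an unadjusted p under 0.05, and 0 passed in limma. Rpl17 had the smallest p, with 356, 459, 336, 473 and 638 in IPC and 692, 1102, 1247, 700.3 and 512 in ISCH and a change of -0.83 ± 0.24 (adjusted p = 0.181). The list moved with the scaling, to a median of -0.02 with median centring, where the median of all genes was 0.10. It therefore stayed below all genes under both scalings.

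**Figure D4:**
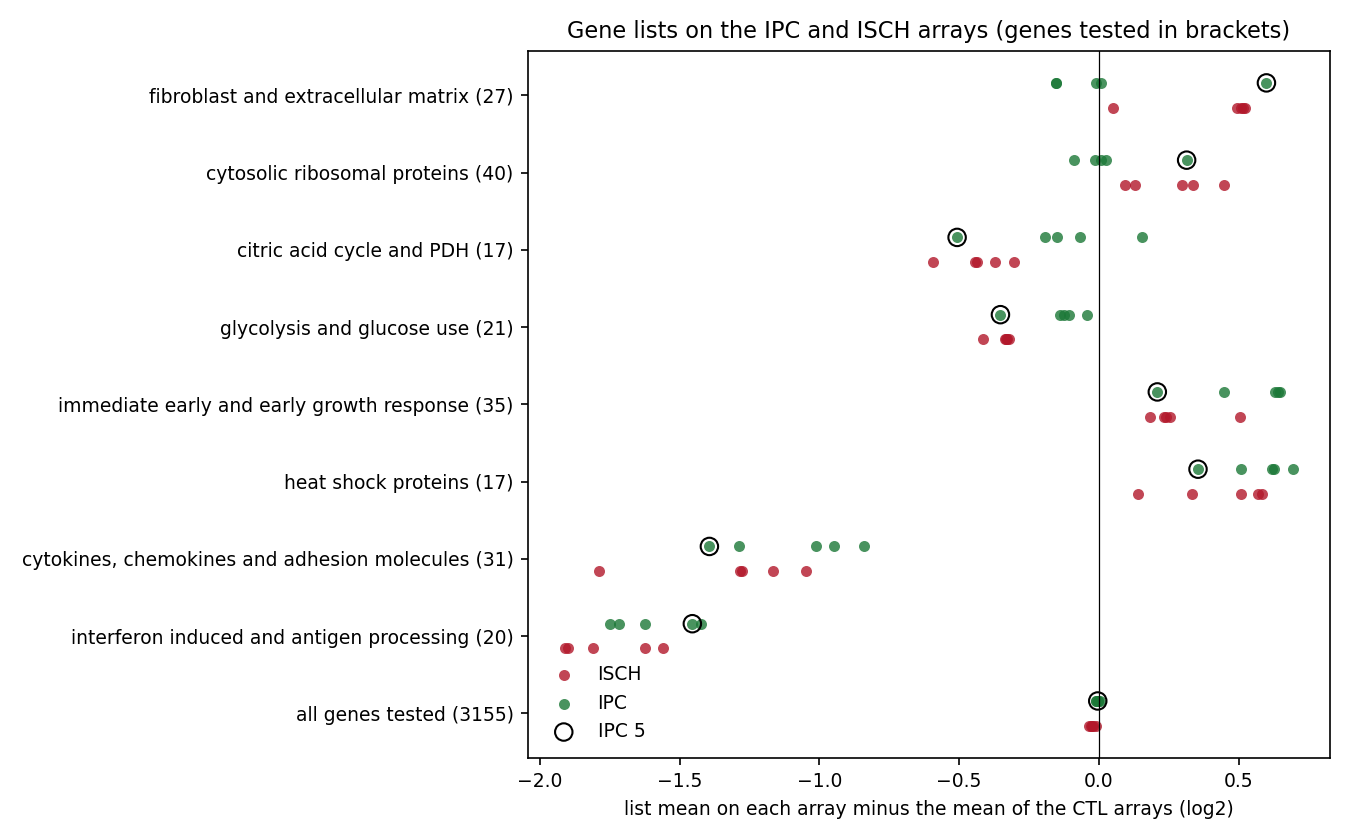
Mean of each gene list on each IPC (green) and ISCH (red) array minus the mean of the CTL arrays, in log2, with IPC 5 ringed and the number of genes tested in brackets. In the matrix, ribosomal, citric acid cycle and glycolysis lists IPC 5 lies among the ISCH arrays or beyond them and the other 4 IPC arrays lie apart from most of them. The mean over all 3155 genes is near 0 on every array, which the quantile normalisation largely sets in advance.

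None of the stress genes plotted against CTL passed between IPC and ISCH. Jun read 8774, 9163, 9686, 8951 and 6391 in IPC and 5753, 10395, 10554, 8980.4 and 6017 in ISCH, against 898 to 1758 in CTL. It was 2.64 ± 0.22 above CTL in ISCH, and IPC minus ISCH was 0.13 ± 0.22 (interval -0.32 to 0.57). The 3 dimmer tested probe sets of Jun had -0.88 ± 0.29 (rc_AA944014_at, adjusted p = 0.234), -0.32 and 0.25, so they disagree, the first of them outside that interval. Fos had 0.21 ± 0.19 (interval -0.19 to 0.60) and Egr1 0.48 ± 0.23 (interval 0.02 to 0.94). The heat shock protein gene Hspa1a read 17067, 17247, 14828, 19380.2 and 16568 in IPC and 25033, 24667, 27806, 24257 and 14602 in ISCH, with a change of -0.24 ± 0.32 (interval -0.89 to 0.40), and haem oxygenase (Hmox1) had -0.07 ± 0.19. A p that missed the threshold does not show that the groups were alike, and each interval holds for the probe set shown.

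The immediate early list had 24 of 35 genes above 0 and a median of 0.21. At an unadjusted p under 0.05 8 genes were higher and 0 lower, and 0 passed. Beside Junb and Zfp36 these included the antiproliferative gene Btg1, whose groups did not overlap (0.36 ± 0.13), the kinase gene Sgk1 (0.54 ± 0.20) and Cebpd (0.93 ± 0.36). The list mean against CTL ran from 0.21 to 0.65 in IPC, with IPC 5 the lowest, and from 0.18 to 0.50 in ISCH, with ISCH 3 the highest. The heat shock list had a median of 0.09 over 17 genes, 3 of them higher at an unadjusted p under 0.05, among which the mitochondrial chaperone gene Hspa9 had 0.83 ± 0.38 and the co-chaperone gene Dnaja1 0.58 ± 0.23. Dimmer probe sets of Hspa9 had 0.05 and 0.38. The endoplasmic reticulum stress list had a median of -0.08 over 14 genes, 0 genes past an unadjusted p of 0.05 and a highest value of 0.38 for the pseudokinase gene Trib3. The median turned to 0.14 with median centring, where that of all genes was 0.10.

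**Figure D5:**
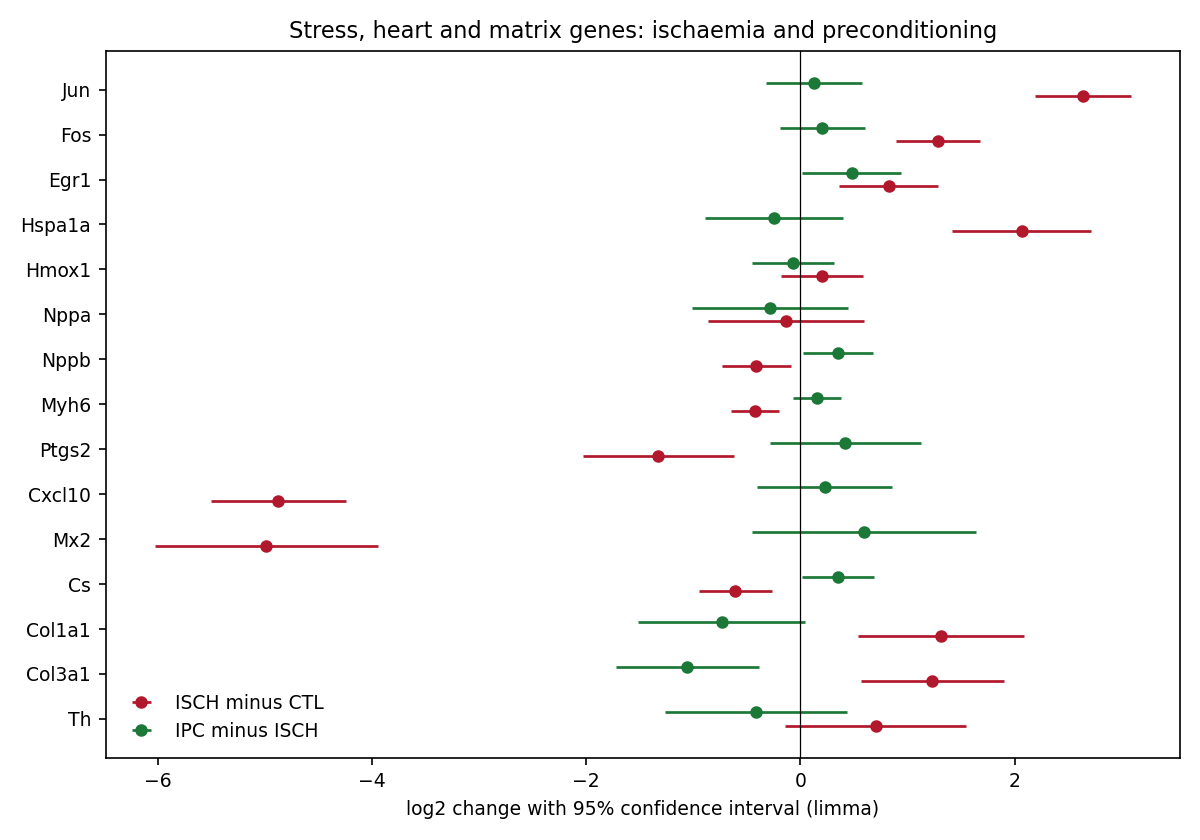
Log2 change with its 95% confidence interval (limma, 5 arrays per group) for ISCH minus CTL (red) and IPC minus ISCH (green) in 15 stress, heart and matrix genes. Red values range from -4.98 for Mx2 to 2.64 for Jun, and green values from -1.05 for Col3a1 to 0.59 for Mx2; the 2 comparisons share the ISCH arrays.

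Of 31 cytokine, chemokine and adhesion genes 22 lay above 0, with a median of 0.18, which was 0.01 with the spike signal in the fit. At an unadjusted p under 0.05 7 were higher and 2 lower, and 0 passed in limma. The higher ones were Il6, Sele, Selp, Vcam1, Icam1, Ccl2 and Ccl3, and Lif and Cxcr4 were the lower. Selp, P-selectin of endothelium and platelets, read 584, 1006, 537, 708 and 354 in IPC and 240, 344, 290, 586 and 343 in ISCH beside 858 to 1680.1 in CTL, with a change of 0.82 ± 0.27 (adjusted p = 0.237). Vcam1 had 0.70 ± 0.26 (a dimmer probe set had 1.27 ± 0.32, adjusted p = 0.0816), Icam1 0.68 ± 0.28 and Ccl2, a monocyte attractant, 0.62 ± 0.22. The chemokine receptor gene Cxcr4 had -0.48 ± 0.14.

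In contrast to the adhesion molecules, other endothelial markers were not higher on the brightest probe set of each gene. Of the 9 tested genes of the endothelium list 7 lay below 0, among them Flt1 (-0.68 ± 0.37), Vwf (-0.60 ± 0.33) and Pecam1 (-0.28 ± 0.20), and only Sele and Selp lay above. The median was -0.28, and turned to 0.03 with the spike signal in the fit. The summed signal of the 10 markers on the array ran from 3582 to 4666 in IPC and from 3871 to 5367 in ISCH. The probe sets of the endothelial marker Thbd disagree. The brighter had mean signals of 970 in IPC and 1130 in ISCH, and a dimmer one 317 and 197. Myeloid markers had a median of 0.00 over 7 genes and lymphocyte markers one of -0.08 over 6, with 0 genes of either past an unadjusted p of 0.05. The median was -0.37 for mast cells (3 genes), -0.27 for adipocytes (5), -0.24 for atrial myocardium (5), -0.19 for skeletal muscle (8) and 0.12 for cardiomyocytes (12). The sign for cardiomyocytes depended on the scaling, with -0.41 on deposited values and -0.27 after median centring.

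Interferon-induced genes, far below CTL in both groups (medians of -1.53 in ISCH and -1.55 in IPC), differed between IPC and ISCH by a median of 0.09 over 20 genes (0.013 with the spike signal in the fit), with 2 higher and 0 lower at an unadjusted p under 0.05. The kinase gene Eif2ak2 had 0.78 ± 0.32 and the GTPase gene Irgm2 0.61 ± 0.25. Mx2 read 48.7, 49.7, 210.5, 54.4 and 61.8 in IPC and 88.3, 40.8, 42.8, 35.6 and 48.9 in ISCH against 1132 to 3097 in CTL. The chemokine gene Cxcl10 had 0.23 ± 0.31 and the prostaglandin synthase Ptgs2 0.42 ± 0.35, with overlapping groups.

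The list of kinases, receptors and channels known from preconditioning had a median of 0.08 over 42 genes (0.0043 with the spike signal in the fit), with 2 higher (Adrb1 and the stress kinase Mapk9, 0.95 ± 0.31) and 4 lower at an unadjusted p under 0.05. Dimmer probe sets of Mapk9 had 0.26 and -0.11, so the probe sets of this gene disagree. The lower ones were the adenosine A1 receptor Adora1 (-1.06 ± 0.43), the ATP-sensitive potassium channel subunit Kcnj8 (-0.72 ± 0.30), the bradykinin B1 receptor Bdkrb1 (-0.54 ± 0.19) and the kinase Map2k2 (-0.48 ± 0.15). None of these passed after adjustment.

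Antioxidant genes split, with 2 higher and 4 lower of 29 at an unadjusted p under 0.05 and a median of 0.05 (-0.05 with the spike signal in the fit). Catalase (Cat), 0.62 ± 0.24, and thioredoxin reductase (Txnrd1), 0.39 ± 0.18, were the higher ones. The lower ones beside Gpx3 were the extracellular superoxide dismutase Sod3, -0.63 ± 0.24, the glutathione transferase Gsta1, -0.64 ± 0.22, and Txnip, -0.59 ± 0.27. Dimmer probe sets of Gsta1 had -0.37 and -0.02. Gpx3 and Sod3 are both secreted proteins.

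Calcium handling genes had a median of 0.09 over 26 genes, with 5 higher and 0 lower at an unadjusted p under 0.05. Casq2, the calcium store protein of the sarcoplasmic reticulum, read 4467, 5509, 4786, 5101 and 2686 in IPC and 3108, 3124, 2453, 4010.4 and 3047 in ISCH, a change of 0.42 ± 0.15 (adjusted p = 0.270; without IPC 5 0.59, adjusted p = 0.0202). Phospholamban (Pln) had 0.41 ± 0.15 and connexin 43 (Gja1) 0.74 ± 0.36. The sarcomere list had a median of 0.04 over 23 genes (-0.15 on deposited values), with 0 genes past an unadjusted p of 0.05. For the brightest heart genes the scaling set the sign: Myh6 had 0.16 ± 0.11 after quantile normalisation and -0.31 on the values as deposited, and Myl2 0.21 ± 0.11 and -0.44. The natriuretic peptide genes had 0.35 ± 0.16 for Nppb and -0.28 ± 0.36 for Nppa.

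The hypoxia and angiogenesis list had a median of 0.16 over 23 genes, with 4 higher and 1 lower at an unadjusted p under 0.05. Beside Plat, the oxygen sensor gene Egln3 (0.55 ± 0.23) and Vegfa (0.46 ± 0.21) were higher, and the semaphorin and VEGF receptor Nrp1 (-0.51 ± 0.20) was lower, none past the threshold. A dimmer probe set of Egln3 had 1.17 ± 0.29 (adjusted p = 0.0816), and 1.41 without IPC 5 (adjusted p = 0.00825). In the cholesterol list 8 of 10 genes lay above 0, with a median of 0.28 and Fdft1 alone past an unadjusted p of 0.05. The median of this list was 0.03 with the spike signal as a covariate. Among glucocorticoid and circadian genes (13, median -0.08) the receptor gene Nr3c1 had -0.50 ± 0.19 and the clock output factor Hlf -1.23 ± 0.42, both without overlap between groups and neither past the threshold. A dimmer probe set of Nr3c1 had 0.03 ± 0.27. The apoptosis (14 genes, median 0.00), natriuretic peptide and fetal gene (15 genes, median -0.04) and proteasome (26 genes, median 0.04) lists had 1, 4 and 4 genes past an unadjusted p of 0.05.

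Against the other kind of preconditioning, IPC differed from APC by 0 probe sets in limma (137 at an unadjusted p under 0.05; smallest adjusted p 0.070). That smallest value belonged to Pnmt, at -1.47 ± 0.28 (interval -2.05 to -0.89). The 5 IPC arrays (121 to 247) all lay below the 5 APC arrays (372 to 892). Pnmt passed in this comparison on the values as deposited (adjusted p = 0.0318), with 60% of probe sets left out (0.0489), with array weights (0.00136) and without APC 3 (-1.62; adjusted p = 0.0298). Anxa1 had 0.90 ± 0.27 (interval 0.34 to 1.46), Gch1 1.02 ± 0.35 on the probe set that passed, Slc16a1 0.15 ± 0.19, Gpx3 -0.22 ± 0.19, Notch1 0.15 ± 0.19 and Col5a1 -0.18 ± 0.20. Under the settings used throughout, none of the 9 probe sets was therefore shown to be particular to ischaemic preconditioning.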

How the data were processed

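Left ventricular RNA was measured on 30 arrays, 5 in each of 6 groups, and groups and replicate numbers were taken from the labels. The intensity of each probe set is the value as deposited by the authors. Per the file contents its trimmed mean, with 2% left out at each end, lies between 500.8 and 501.0 on every array, and the software that made it is not given in the sources used here.

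Intensities were taken as log2(signal + 16) and quantile normalised. Of 8740 probe sets, 59 control probe sets aside, the 40% with the lowest mean were left out. Group means of all 30 arrays were fitted with limma 3.58.1 (R 4.3.3; trend in eBayes, 24 residual degrees of freedom), and p-values were adjusted by Benjamini-Hochberg over 5244 probe sets at a threshold of 0.05. Tables were made with pandas 2.3.3 and figures with matplotlib 3.10.9. The fit was tested on simulated data. With 1 symbol were 7006 probe sets, 308 had several and 1426 none here, and a gene in the lists stands for its brightest probe set. The number of arrays limits the precision.

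Named are the probe sets that passed, the 10 genes a direction with the smallest p, the 10 a direction with the largest change among those called both without IPC 5 and with array weights, up to 4 genes per process list, 16 stress, heart and matrix genes, and the 5 a direction with the largest change among groups without overlap. Further list members were named after their values were seen. The comparison, the 34 lists and the rule were chosen with earlier results of these data known. Same-numbered IPC and ISCH arrays had deviations correlated at -0.07 to 0.21. Samples were therefore not treated as paired, though so few correlations cannot exclude a pairing.

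Alternatives were pseudocounts of 1 and 64, no filter and a filter of 60%, the values as deposited, median centring, a replicate block, a fit of the 2 groups alone, array weights, covariates for the spike signal and the beta-actin ratio, and each array left out. IPC 5 and ISCH 1 were left out together as an alternative added after seeing the data.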

Additional observations from a re-analysis of the deposited data

Results flagged for a closer look

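A signal was set apart where 1 of the 5 arrays of a group lay far from the other 4 by Dixon's criterion, which chance meets in about 1 in 20 groups. This held for 44 of 336 groups of values, 14 of them through IPC 5 and 14 through ISCH 1. Some of the genes examined were named because they were called without IPC 5, so its count is partly set by that choice and is not to be read against the chance rate.

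IPC 5 stood apart from the other IPC arrays in matrix genes, with 1482 for Col5a1, 8048 for Col3a1, 2392 for Col1a2, 11910 for Col1a1 and 3181 for Bgn, all above the other 4. It was also highest for M13100cds#2_s_at (3305), Npr1 (644.7), Shox2 (177), and in the means of the matrix list (0.5995) and the ribosomal list (0.314) against CTL. It read 521.1 for Ccdc117, 126.3 for Dmac2l, 11960 for Fos and 6391 for Jun.

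ISCH 1 stood apart from the other ISCH arrays in very bright heart genes, with 69570 for Myl2 and 48170 for Myh6, and held 44.3% of its signal in the brightest 1% of probe sets. Its other separate values were 2513 for Gpx3 (D00680_at), 1152 for Slc16a1 (rc_AI145680_s_at), 1334 for Mmp2, 5839 for Calr and 205 for Cdkn1a. They were also 522.1 for Bdkrb1, 233.1 for Tnni1, 1179 for Jag2, 266.9 for Idi1, 88.3 for Mx2 and 327.1 for Glp1r.

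ISCH 2 had 292.3 for Fdft1, 19.6 for Trib3, 0.04971 for the matrix list and -0.1937 for the glucocorticoid and circadian list. ISCH 3 had 1347 for Notch1, 1494 for Il6, -0.4154 for the glycolysis list and 0.5033 for the immediate early list. ISCH 4 had 214.7 for Smad7 and 0.4378 for the endothelium list, and ISCH 5 had 14600 for Hspa1a. IPC 3 had 210.5 for Mx2, 898.2 for Cxcl10 and a log2 beta-actin 3′ to 5′ ratio of -0.1182. IPC 4 had 10160 for Atp5pf and 231.7 for Emc8.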

How the results depend on the processing

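The count of 9 probe sets was 2 without a filter, 22 on the values as deposited, 267 with array weights, 78 without IPC 5 and ISCH 1 together (an alternative added after seeing the data), and between 0 (without IPC 2 or IPC 4) and 89 (without IPC 5) with 1 array left out. With the replicate block it was 2, and the pairing check above cannot settle whether that block applies. In limma it was 0 with only the IPC and ISCH arrays in the fit (671 at an unadjusted p under 0.05) and 0 with the spike signal as a covariate (275). Pseudocounts of 1 and 64, the 60% filter, median centring and the beta-actin ratio gave 7 to 13. IPC minus APC gave 1 in place of 0 with the 60% filter, on the values as deposited, with array weights and without APC 3. The sign turned for Myl2 (-0.44), Myh6 (-0.31) and Hmox1 (0.0091) on the values as deposited, and for Myl2 (-0.29), Myh6 (-0.16), Hmox1 (0.15) and Pdia6 (0.017) with median centring. With the spike covariate it turned for Calr (0.13), Casp2 (0.17), Hspa1a (0.15) and Cxcl10 (-0.058). With 1 array left out, Hmox1 ran from -0.18 (without ISCH 2) to 0.019 (without IPC 3), also turning without ISCH 3 (0.012), and Trib3 from -0.087 (without ISCH 2) to 0.57 (without ISCH 5). The cause of these shifts was not tested.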
